A study of Mus musculus with 6 samples.

Results

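The unfolded protein response is the pathway by which a cell senses unfolded proteins in the endoplasmic reticulum (ER) and adjusts its capacity to fold, export and degrade them. Described here are 10 of its genes in the mouse colon, taken by symbol from the deposited table: the sensors Ern1, Ern2 and Atf6, the transcription factors Xbp1, Atf4 and Ddit3, and the ER-resident or ER-membrane target genes Herpud1, Sdf2l1, Hyou1 and Creld2. All 10 were found, among 30419 genes with values, and each corresponded to 1 gene identifier. The samples were whole colons of 3 R1ko mice, labelled as knockouts (Tnfrsf1a-/-) of the gene encoding TNFR1, a receptor for tumour necrosis factor, and of 3 wild-type (WT) mice. All animals were males of 12 weeks and carried the strain label C57Bl/6J. The sources used here do not say which part of Tnfrsf1a the knockout lacks or whether the mice were littermates, so differences of substrain or housing cannot be told apart from the genotype.

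In the textbook scheme, 3 sensors span the ER membrane. IRE1, encoded by Ern1 in most cells and by Ern2 in the mucous epithelia of gut and airway, removes a short intron from the Xbp1 messenger, and the joined messenger encodes an active transcription factor. ATF6 is cut in the Golgi to release its own transcription factor domain. PERK, encoded by Eif2ak3, phosphorylates eIF2α, which lowers general translation and raises that of ATF4, and ATF4 in turn drives Ddit3, the gene for CHOP. In the gut, secretory cells with a heavy protein load, goblet and plasma cells among them, depend on this pathway.

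The sequence that IRE1 removes was read first, because it sets what the table can show. It lies in exon 4 of the main Xbp1 transcript, ENSMUST00000063084, and is shown with 20 bases on each side (GENCODE M21, build GRCm38, chr11:5524262-5524327, plus strand), the 26 bases removed by IRE1 in capitals.
Xbp1: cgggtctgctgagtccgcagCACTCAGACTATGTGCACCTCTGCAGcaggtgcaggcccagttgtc
With these bases in place the reading frame of ENSMUST00000063084 runs for 267 codons, and without them for 371 codons. Of the 4 annotated Xbp1 transcripts, which are also the 4 listed in the deposited table, 3 contain the stretch and 0 hold the joined form. The table therefore gives the amount of Xbp1 RNA and not how much of it IRE1 had spliced. Activation of ATF6 by cleavage and of PERK by phosphorylation likewise leaves no direct trace in RNA amounts.

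Promoter sequence is given for the genes that held a known ER stress element. RefSeq promoters (GRCm38.p6) were available for 7 of the 10 genes and were searched on both strands over the 250 bases before the gene start. The elements were ERSE (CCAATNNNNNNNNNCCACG), ERSE-II (ATTGGNCCACG), the core of the UPRE (TGACGTGG) and the ATF4 site CARE (TGATGNAA). Herpud1 held a CARE at -112 to -105 and an ERSE-II at -52 to -42, and Creld2 held an ERSE at -126 to -108, counted from the gene start in RefSeq, which for Herpud1 lies a few bases upstream of the GENCODE start. The stretches are shown with the matched letters in capitals (Creld2 at chr15:88819508-88819550, Herpud1 at chr8:94386305-94386399, both plus strand).
Creld2: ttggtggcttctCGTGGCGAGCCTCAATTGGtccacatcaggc
Herpud1: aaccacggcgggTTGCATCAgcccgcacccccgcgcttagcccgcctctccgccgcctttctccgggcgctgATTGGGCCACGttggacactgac
Among all 32851 promoters of that table, 0.113% held an ERSE, 0.0304% an ERSE-II, 0.563% a UPRE core and 3.45% a CARE, so the ERSE and ERSE-II letters are rare and the CARE letters less so. A match describes the sequence only, and so does the lack of one.

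The libraries themselves were compared before the genes. The table holds TPM, the abundance of each transcript normalised for its length and for the library total, so levels may be compared between genes, but the read depth behind each value is unknown. Transcripts without a gene took between 1.86 and 7.23% of all TPM in the R1ko libraries and between 2.79 and 27.4% in the WT libraries. The 27.4% belonged to WT replicate 2. TPM are shares of a fixed total, and WT replicate 2 had the smallest scaling factor of the 6 libraries. Each result is therefore given on the deposited scale and on a scaled one. Median-of-ratios scaling divides each library by the median ratio of its genes to their geometric mean (factors 1.06, 0.918 and 1.07 for R1ko replicates 1 to 3, and 1.13, 0.786 and 1.10 for WT replicates 1 to 3). Colon identity was clear: Lypd8, which is abundant in the colon epithelium, averaged 10924 ± 348.0 TPM in R1ko and 9516 ± 1338 TPM in WT (SD, n = 3 each), and the small intestinal gene Fabp6 14.6 ± 0.82 and 15.3 ± 3.91 TPM. The full-length Tnfrsf1a transcript ENSMUST00000032491 had 23.5, 20.4 and 25.6 TPM in R1ko libraries, against 67.6, 39.9 and 59.1 TPM in WT libraries, without overlap (log2 fold change -1.21 ± 0.22, SE; limma adjusted p = 0.197, and 0.0168 after scaling). Another Tnfrsf1a transcript, ENSMUST00000125880, had 18.0, 12.4 and 14.1 TPM in R1ko libraries, against 1.202, 1.204 and 0.890 TPM in WT libraries (log2 fold change 3.25 ± 0.24, SE; limma adjusted p = 0.00124). The Tnfrsf1a gene sum overlapped, at 49.2, 36.5 and 46.9 TPM in R1ko libraries and 71.2, 44.1 and 63.0 TPM in WT libraries (log2 fold change -0.41, limma adjusted p = 0.9999).

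None of the 10 genes differed between genotypes beyond the spread of the libraries. In limma over 14284 genes, 0 of the 10 passed a Benjamini-Hochberg adjusted p of 0.05, where 0.266% of all genes did (0.091% higher and 0.175% lower in R1ko). After scaling it was again 0 of 10, where 0.042% of all genes passed (0.035% higher and 0.007% lower). At an unadjusted p below 0.05 the count was also 0 of 10 on both scales, where the shares of all genes were 3.7% and 11.4%. For all 10 genes the ranges of R1ko and WT libraries overlapped on both scales, while 4.98% of all genes as deposited and 18.5% after scaling had groups that did not overlap. On both scales 8 of the 10 log2 fold changes were positive, where 55.7% of all genes as deposited and 49.3% after scaling were. The median log2 fold change of the 10 was 0.06 as deposited and 0.03 after scaling, beside 0.03 and -0.0027 for all genes tested.

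Because a missed threshold does not show equal levels, the size of difference that these colons still allow is given by the confidence intervals. As deposited, the 95% intervals of the 10 genes lay between 0.581 and 1.497 times the WT level, and after scaling between 0.608 and 1.29 times. The fit draws each gene's variance toward that of genes at a similar level. As deposited the SE of the 10 genes lay between 0.19 (Herpud1) and 0.23 (Ern1), so an interval does not measure the spread of its gene alone. After scaling, the widest interval in log2 units was that of Ddit3, and the narrowest were those of Xbp1 and Creld2.

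**Figure D1:**
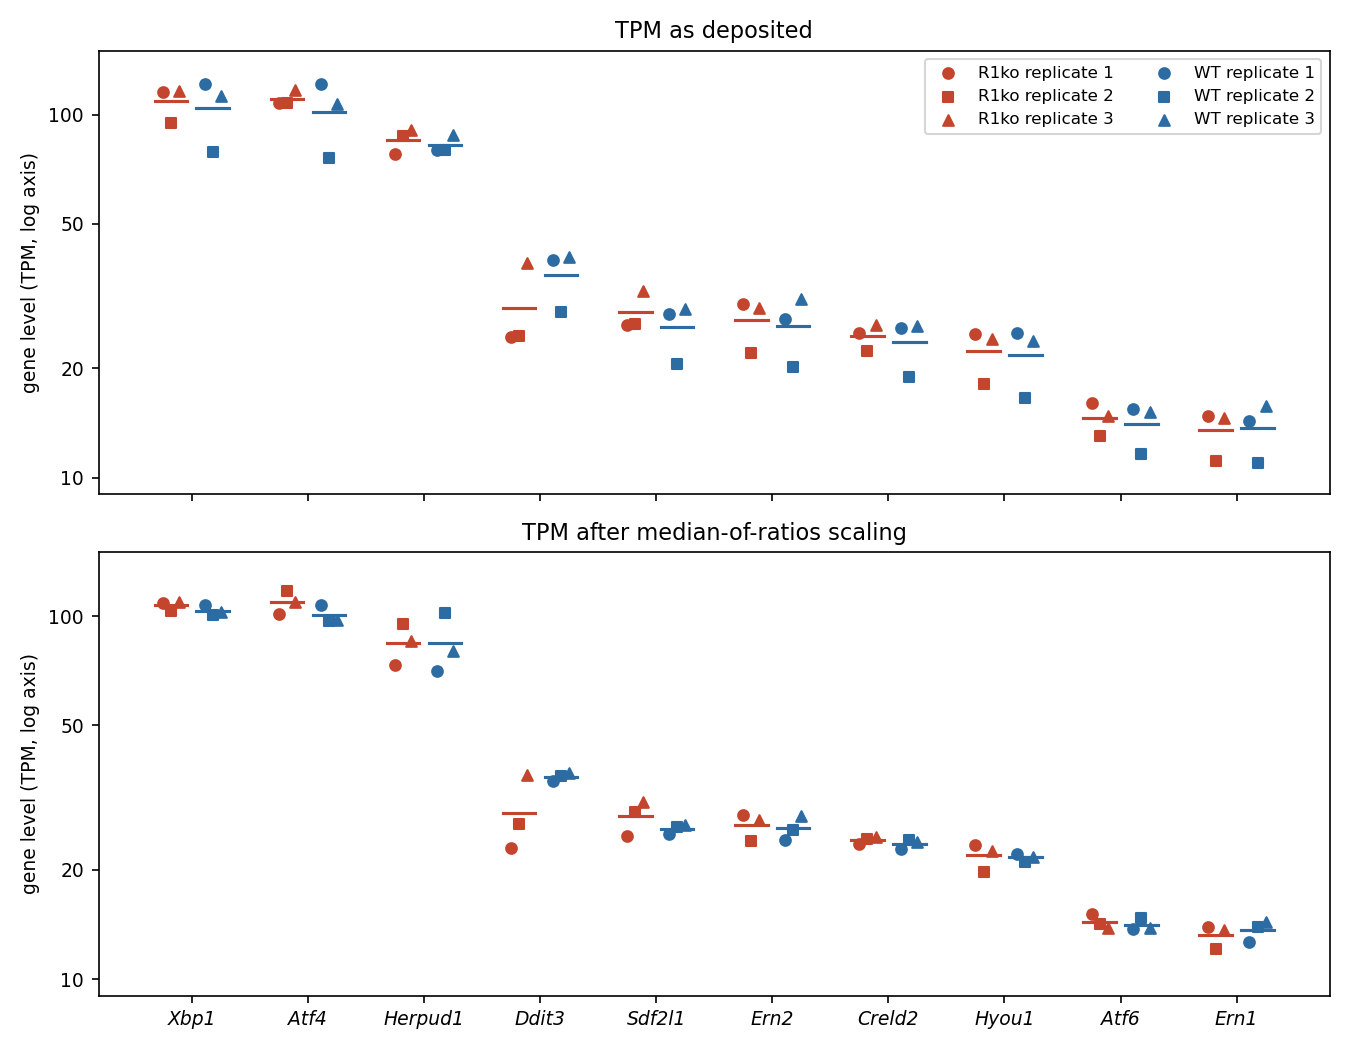
Level of the 10 unfolded protein response genes in each library, in TPM on a log axis, on the deposited scale (top) and the median-of-ratios scale (bottom); red symbols are R1ko and blue symbols WT colons, symbol shape gives the replicate and the bar is the mean of 3. As deposited, WT replicate 2 is the lowest library for 8 of the 10 genes; after scaling the ranges of the genotypes overlap for all 10, and 2 of the 3 R1ko libraries lie below every WT library for Ddit3.

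Among the 3 sensors, Ern2 was the most abundant. Ern2 (IRE1β; chromosome 7, 122169893 to 122186207, mm10) had 30.1, 22.02 and 29.3 TPM in R1ko libraries, against 27.4, 20.2 and 31.0 TPM in WT libraries. As deposited, the low value of each genotype was its replicate 2, and the groups covered the same range. Its log2 fold change was 0.06 ± 0.22 (SE; limma adjusted p = 0.9999), and 0.03 ± 0.09 after scaling (adjusted p = 0.919).

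Ern1, the widely expressed IRE1α, had 14.8, 11.1 and 14.6 TPM in R1ko libraries, against 14.3, 10.9 and 15.8 TPM in WT libraries (chromosome 11, 106394650 to 106487852). As deposited, the 6 libraries ranked in the same order for Ern1 as for Ern2. After scaling the orders differed, with WT replicate 3 the highest for Ern1 and R1ko replicate 1 for Ern2. The log2 fold change of Ern1 after scaling was -0.04 ± 0.09 (SE; limma adjusted p = 0.871). Within a library the ratio of the 2 genes does not depend on scaling. Ern2 stood at 2.03, 1.98 and 2.01 times Ern1 in R1ko colons, against 1.92, 1.85 and 1.96 times in WT colons. These ratios varied little and the groups did not overlap, but the difference between the means, 2.01 ± 0.03 and 1.91 ± 0.06 (SD, n = 3 each), was small (two-sided exact permutation p = 0.1, the smallest that 3 against 3 allows; 0.3 adjusted over the 3 ratios compared, which were chosen after the values were seen).

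Atf6, the sensor cut in the Golgi, had 16.1, 13.0 and 14.8 TPM in R1ko libraries, against 15.5, 11.6 and 15.2 TPM in WT libraries (chromosome 1, 170704674 to 170867771). Its log2 fold change was 0.06 ± 0.22 as deposited and 0.03 ± 0.08 after scaling (SE; limma adjusted p = 0.9999 and 0.895). The sensor of the remaining branch, Eif2ak3 (PERK), had 17.7, 16.4 and 16.7 TPM in R1ko libraries, against 19.97, 13.3 and 19.1 TPM in WT libraries, again with overlap (log2 fold change after scaling -0.05, limma adjusted p = 0.811). The 3 branches were thus each represented by a sensor at 10.9 TPM or more in every library, with no difference between genotypes past the threshold.

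Of the transcription factors, Xbp1 and Atf4 were the most abundant of the 10 genes. Xbp1 (chromosome 11, 5520659 to 5525893) had 115.8, 94.6 and 116.5 TPM in R1ko libraries, against 121.1, 79.1 and 112.9 TPM in WT libraries. Scaling narrowed the spread: the values were 109.0, 103.1 and 109.3 in R1ko and 107.1, 100.7 and 102.8 in WT, and the highest library exceeded the lowest by 1.08 times. The scaled log2 fold change was 0.05 ± 0.06 (SE; limma adjusted p = 0.7698), with an interval from 0.934 to 1.14 times the WT level. Over its 4 transcripts, the full-length ENSMUST00000063084 held 64.5, 80.3 and 67.9% of the gene in R1ko libraries, against 65.0, 68.5 and 61.0% in WT libraries. R1ko replicate 2 had the highest share, and the remaining 5 libraries lay between 61.0 and 68.5% (exact permutation p = 0.5). In TPM this transcript had 74.7, 76.0 and 79.1 in R1ko libraries, against 78.7, 54.2 and 68.9 in WT libraries. After scaling its groups did not overlap, as in 18.5% of all transcripts, with a log2 fold change of 0.20 (limma adjusted p = 0.485). The retained-intron transcript ENSMUST00000145588, the only one without the IRE1 stretch, had 13.9, 6.48 and 13.0 TPM in R1ko libraries, against 16.8, 8.65 and 14.8 TPM in WT libraries.

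Atf4, the effector of the PERK branch, had 107.4, 107.6 and 116.6 TPM in R1ko libraries, against 121.4, 76.0 and 107.0 TPM in WT libraries (chromosome 15, 80255184 to 80257541). The WT libraries held both the highest and the lowest value. Its log2 fold change was 0.15 ± 0.21 (SE; limma adjusted p = 0.9999) and 0.12 ± 0.08 after scaling (adjusted p = 0.579), the largest positive value of the 10 genes on both scales.

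Ddit3, which encodes CHOP, a factor linked to cell death under lasting ER stress, was the gene with the largest difference, and in the direction of lower levels in R1ko. It had 24.4, 24.5 and 38.9 TPM in R1ko libraries, against 39.7, 28.5 and 40.6 TPM in WT libraries (chromosome 10, 127290774 to 127296288). Scaling brought the R1ko libraries to 23.0, 26.7 and 36.5 and the WT libraries to 35.1, 36.3 and 36.9. R1ko replicates 1 and 2 thus lay below every WT library and R1ko replicate 3 within the WT range. The log2 fold change was -0.32 ± 0.23 (SE; limma adjusted p = 0.9999), and -0.35 ± 0.16 after scaling (unadjusted p = 0.0594 and adjusted p = 0.456 by limma). The scaled interval ran from 0.608 to 1.01 times the WT level. Leaving out R1ko replicate 3 gave a log2 fold change of -0.54 as deposited, and leaving out R1ko replicate 1 or 2 gave -0.21 each, so the value rests on which R1ko libraries are counted. Without WT replicate 2 it was -0.48 (unadjusted p = 0.0461 by limma). The limma adjusted p over these alternatives stayed between 0.622 and 1. Set against ATF4's own RNA within each library, Ddit3 stood at 0.228, 0.228 and 0.334 times Atf4 in R1ko colons and at 0.327, 0.375 and 0.379 times in WT colons (exact permutation p = 0.2, adjusted p = 0.3 over 3 ratios), with R1ko replicate 3 again inside the WT range. Exons of Ddit3 share 68 bases with the opposite-strand gene Mars, which averaged 17.2 TPM, and 105 bases with a second annotated Ddit3 identifier on the same strand, and the sources used here do not state whether reads were assigned by strand.

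**Figure D2:**
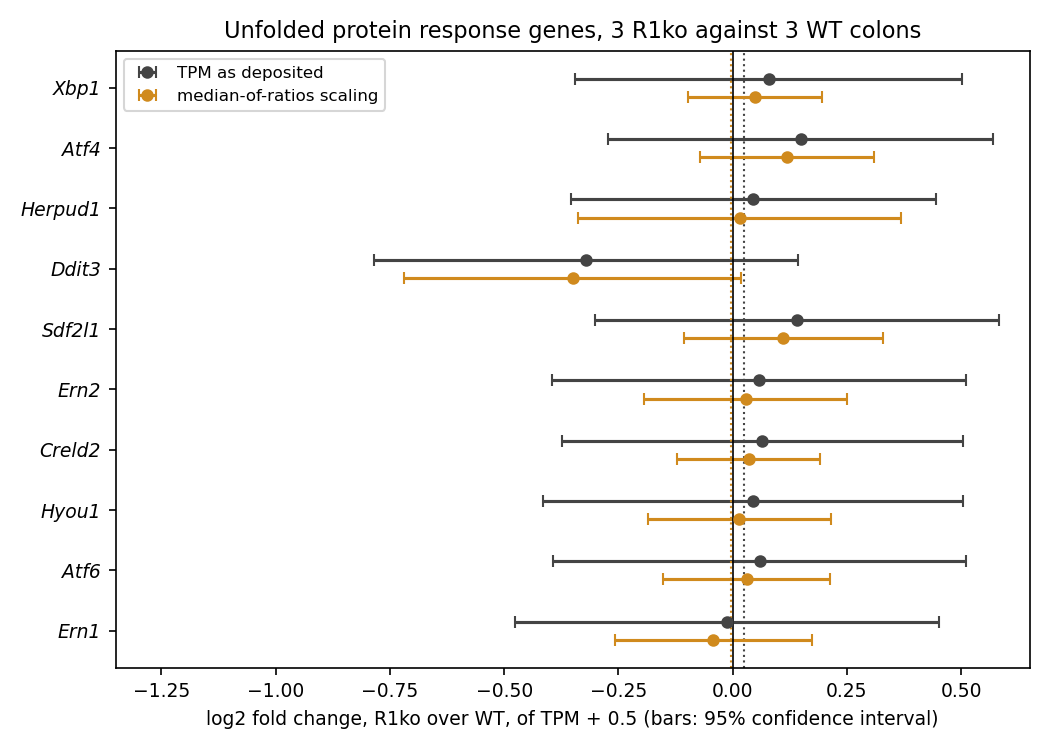
Log2 fold change of each gene, R1ko over WT, with its 95% confidence interval from limma, on the deposited scale (grey) and the median-of-ratios scale (orange); dotted lines mark the medians of all genes tested. Every interval includes 0, scaling narrows each of them, and Ddit3 is the lowest, at -0.32 and -0.35.

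The target genes act in the ER itself. Herpud1, an ER membrane protein of ER-associated degradation and the gene with the elements printed above, had 78.0, 87.1 and 91.0 TPM in R1ko libraries, against 80.1, 79.9 and 87.8 TPM in WT libraries (chromosome 8, 94386438 to 94395377). WT replicate 2 was level with WT replicate 1 for this gene as deposited. Scaling widened its spread, and the values became 73.4, 94.9 and 85.3 in R1ko and 70.8, 101.7 and 80.0 in WT. The highest library exceeded the lowest by 1.17 times as deposited and by 1.44 times after scaling. The genotypes covered the same range on both scales (log2 fold change 0.05 ± 0.20 and 0.02 ± 0.15, SE; limma adjusted p = 0.9999 and 0.974).

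Sdf2l1, a cofactor of the chaperone complex of the ER, had 26.4, 26.5 and 32.7 TPM in R1ko libraries, against 28.3, 20.6 and 29.2 TPM in WT libraries (log2 fold change 0.14 ± 0.22, SE; limma adjusted p = 0.9999, and 0.647 after scaling). Creld2, an ER protein with disulfide isomerase activity that holds the ERSE printed above, had 25.03, 22.4 and 26.3 TPM in R1ko libraries, against 25.8, 19.0 and 26.1 TPM in WT libraries. After scaling, Creld2 was among the steadiest of the 10 genes, at 23.6, 24.4 and 24.6 in R1ko and 22.8, 24.2 and 23.8 in WT, with an interval from 0.92 to 1.14 times the WT level (limma adjusted p = 0.8497). Hyou1, the large chaperone GRP170 that exchanges nucleotide on BiP, had 24.9, 18.1 and 24.1 TPM in R1ko libraries, against 25.1, 16.5 and 23.8 TPM in WT libraries. Replicate 2 was the low library of both genotypes, and the scaled log2 fold change was 0.01 ± 0.09 (SE; limma adjusted p = 0.955).

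The order of the levels was the same in outline in all libraries. Xbp1 and Atf4 averaged 106.7 and 106.0 TPM over the 6 libraries and could not be ranked, each being higher in 3. Herpud1 followed at 84.0 TPM and was below Atf4 in 5 of 6 libraries. After a gap, in which Herpud1 exceeded Ddit3 by 2.02 to 3.55 times, came Ddit3 at 32.8, Sdf2l1 at 27.3, Ern2 at 26.7, Creld2 at 24.1 and Hyou1 at 22.1 TPM. Neighbours in this group changed places in some libraries, apart from Creld2 and Hyou1, which kept their order in 6 of 6 with ratios from 1.01 to 1.24. Atf6 at 14.4 and Ern1 at 13.6 TPM were the least abundant, and Hyou1 exceeded Atf6 in 6 of 6 libraries.

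Transcripts were compared to see shifts that gene sums hide. The table lists 34 transcripts for the 10 genes, of which 31 had values and 22 had the mean of 1 TPM required for testing. In limma over 31056 transcripts, 0 of the 22 passed, where 0.0419% of all transcripts did (0.029% higher and 0.0129% lower in R1ko). After scaling 0 passed, where 0.0451% did (0.0354% higher and 0.00966% lower). The deposited ranges of the genotypes overlapped for all 22, while 8.19% of all transcripts had groups that did not overlap. After scaling 2 of the 22 did not overlap, Xbp1 ENSMUST00000063084 and Ddit3 ENSMUST00000134686, where 18.5% of all transcripts did not. Of the 22, 13 had a positive log2 fold change, where 49.9% of all transcripts as deposited and 49.4% after scaling were positive. The only one of the 22 with an unadjusted p below 0.05 as deposited, where 5.02% of all transcripts had one, was the Ddit3 transcript ENSMUST00000134686, annotated with a retained intron. It had 1.49, 1.34 and 3.32 TPM in R1ko libraries, against 4.13, 2.66 and 4.20 TPM in WT libraries. The log2 fold change was -0.77 ± 0.34 (SE) as deposited, with a limma adjusted p of 0.993, and 0.401 after scaling. As a share of Ddit3 it took 6.09, 5.45 and 8.52% in R1ko and 10.4, 9.33 and 10.3% in WT, without overlap (exact permutation p = 0.1, adjusted p = 0.756 over the 17 shares compared in 5 genes).

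The only other share of the 17 without overlap was that of Herpud1 ENSMUST00000159450, a transcript of the nonsense-mediated decay class. It took 6.89, 7.73 and 6.82% of Herpud1 in R1ko libraries, against 4.48, 5.24 and 6.64% in WT libraries (exact permutation p = 0.1, adjusted p = 0.756). Those 2 shares of 17 stand beside 18.2% of all transcript shares that did not overlap in genes with at least 2 tested transcripts.

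The other tested transcripts overlapped between genotypes in their shares. The main Ddit3 transcript ENSMUST00000026475 had 16.7, 18.9 and 28.8 TPM in R1ko libraries, against 23.2, 20.5 and 29.3 TPM in WT libraries. Ddit3 ENSMUST00000139091 had 6.22, 4.35 and 6.75 TPM in R1ko libraries, against 12.4, 5.35 and 7.03 TPM in WT libraries, with WT replicate 1 the highest. Most Ern1 RNA was ENSMUST00000001059, at 88.9, 86.1 and 82.8% of the gene in R1ko libraries, against 88.6, 84.0 and 85.1% in WT libraries. The main Hyou1 transcript ENSMUST00000066601 had 16.3, 11.1 and 14.4 TPM in R1ko libraries, against 15.4, 9.94 and 15.3 TPM in WT libraries. Atf4, Sdf2l1, Creld2 and Ern2 each had 1 transcript with values, so their transcript values are the gene's.

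A second Herpud1 decay target, ENSMUST00000161085, varied between libraries and not between genotypes. It had 3.66 and 8.48 TPM in R1ko replicates 1 and 2 and 7.19 and 10.2 TPM in WT replicates 1 and 2, but was near 0 in replicate 3 of each genotype, at 7.75e-06 TPM in R1ko and 2.08e-09 TPM in WT. The full-length ENSMUST00000161576 held between 69.8 and 74.8% of Herpud1 in every library. ENSMUST00000161085 held up to 12.8%, in WT replicate 2. After scaling, WT replicate 2 and R1ko replicate 2 had the most of it and also the highest Herpud1 sums, at 101.7 and 94.9. The part of this transcript in the spread of the gene sum was not tested.

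**Figure D3:**
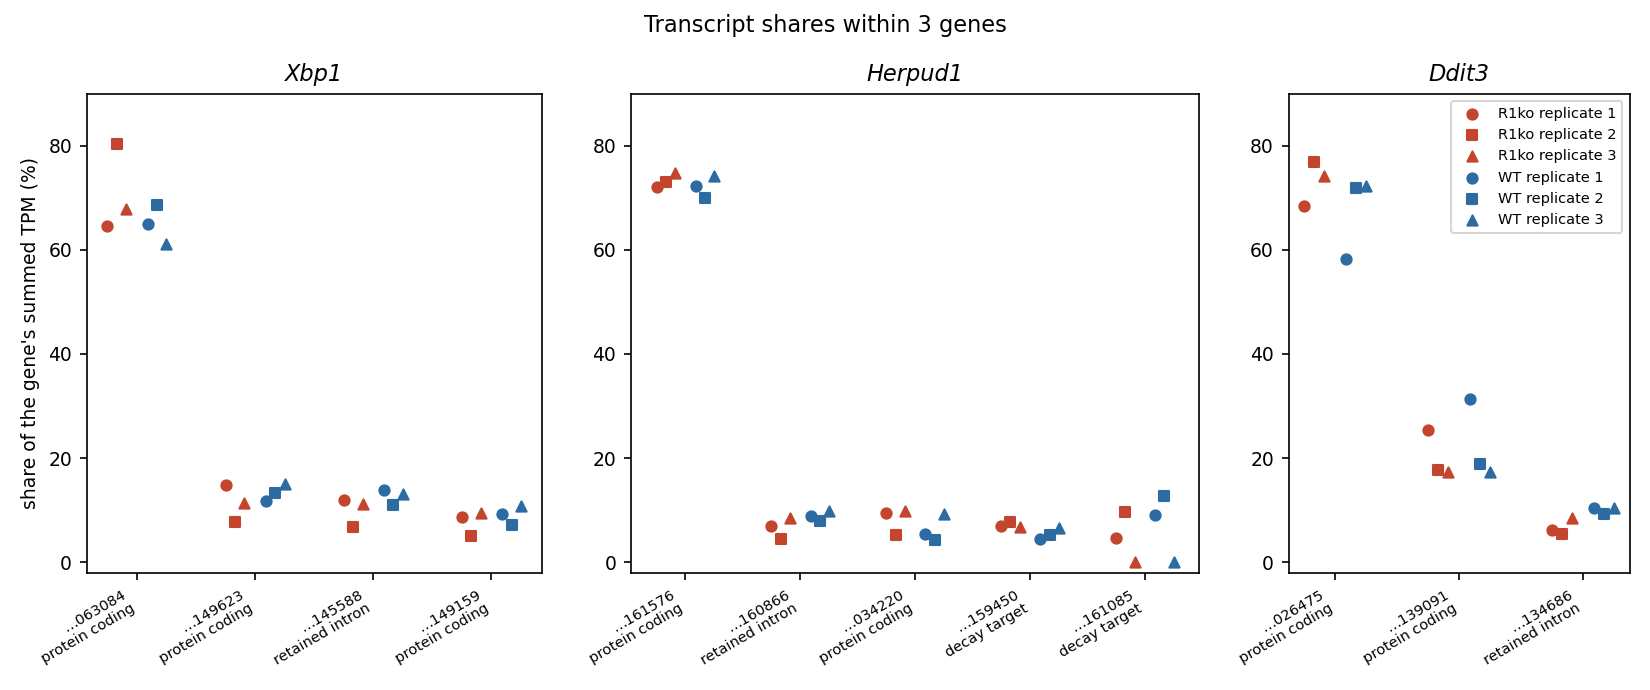
Share of the gene's summed TPM held by each tested transcript of Xbp1, Herpud1 and Ddit3, in percent, for R1ko (red, left) and WT (blue, right) libraries; symbol shape gives the replicate and the labels give the last 6 digits and the annotated type. The main transcript of each gene holds most of its RNA in every library, and the second Herpud1 decay transcript is near 0 in replicate 3 of both genotypes.

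The other genes of the pathway were read from 5 lists with 118 different genes, of which 115 were tested. As with the 10 genes, 0 of the 115 passed in limma over all genes on either scale, and 1 as deposited and 10 after scaling, or 8.70%, had an unadjusted p below 0.05, where all genes gave 3.7% and 11.4%. After scaling, 82 of the 115 had a positive log2 fold change, or 71.3%, where 49.3% of all genes did, and the median was 0.06. In 26 of them, or 22.6%, the scaled groups did not overlap, beside 18.5% of all genes.

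The list of other sensors and factors (14 tested, 0 passed, scaled median 0.17) also holds genes outside these classes, among them Bloc1s1, Traf2, Rtcb and Ufm1. In this list, Creb3l1, a membrane-bound factor of secretory cells, had 79.7, 68.2 and 75.3 TPM in R1ko libraries, against 73.5, 45.6 and 68.5 TPM in WT libraries (scaled log2 fold change 0.25, limma adjusted p = 0.351). Tmbim6, an ER membrane protein that counters cell death, averaged 491.9 ± 22.3 TPM in R1ko and 419.0 ± 53.4 TPM in WT (SD, n = 3 each), without overlap (scaled adjusted p = 0.4301 in limma). Atf6b, a relative of Atf6, averaged 63.7 ± 13.5 and 53.4 ± 8.10 TPM in R1ko and WT. Mbtps2, which completes the cleavage of ATF6, averaged 12.2 ± 2.28 TPM in R1ko and 10.1 ± 1.99 TPM in WT. Creb3l3 was the low member, at 2.33 ± 1.21 TPM in R1ko and 3.01 ± 0.62 TPM in WT.

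ER chaperones and folding enzymes (24 tested, 0 passed, scaled median 0.06) include the most used markers of the response. Hspa5, the chaperone BiP, had 355.6, 292.1 and 384.9 TPM in R1ko libraries, against 336.7, 250.3 and 357.4 TPM in WT libraries (scaled log2 fold change 0.11 ± 0.08, SE; limma adjusted p = 0.597). Hsp90b1, the chaperone GRP94, averaged 191.3 ± 11.3 TPM in R1ko and 181.7 ± 31.0 TPM in WT, and Dnajb9, a BiP co-chaperone and XBP1 target, 38.4 ± 2.45 and 36.4 ± 5.03 TPM (SD, n = 3 each). These 3 genes overlapped between genotypes on both scales. Agr2, the disulfide isomerase of goblet cells needed for mucin folding, averaged 1165 ± 22.8 TPM in R1ko and 956.0 ± 192.5 TPM in WT, and Pdia5, another disulfide isomerase, 24.3 ± 1.87 and 19.9 ± 3.30 TPM. For both the groups did not overlap, and neither passed (scaled adjusted p = 0.392 and 0.359 in limma). Fkbp2, a prolyl isomerase of the ER, averaged 110.4 ± 3.85 and 95.02 ± 12.9 TPM, and Manf, a secreted factor induced by ER stress, 148.8 ± 11.9 and 132.3 ± 29.6 TPM.

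In ER-associated degradation (21 tested, 0 passed, scaled median 0.05), the ubiquitin-conjugating enzyme Ube2g2 had the largest difference, at 136.4, 118.4 and 127.4 TPM in R1ko libraries, against 117.6, 68.6 and 101.4 TPM in WT libraries. The groups were apart on both scales, and its log2 fold change of 0.44 (unadjusted p = 0.0452) had an adjusted p of 0.9999 in limma, and 0.287 after scaling. Selenok, a selenoprotein of the ER membrane, averaged 125.7 ± 5.58 TPM in R1ko and 105.4 ± 19.2 TPM in WT (SD, n = 3 each). Derl2, a channel component of the pathway, averaged 50.0 ± 4.72 TPM in R1ko and 44.0 ± 10.2 TPM in WT.

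For translocation into the ER and early secretion (30 tested, 0 passed, scaled median 0.08), Ost4, a small subunit of the oligosaccharyl transferase, had 157.4, 136.8 and 153.6 TPM in R1ko libraries, against 134.8, 92.5 and 133.4 TPM in WT libraries. Its groups did not overlap on either scale (scaled log2 fold change 0.30 ± 0.06, SE; limma adjusted p = 0.287). Sec61b, of the translocation channel, averaged 303.1 ± 32.9 TPM in R1ko and 253.2 ± 50.2 TPM in WT, Ssr2, of the translocon-associated complex, 250.8 ± 22.2 and 212.8 ± 41.7 TPM, and Spcs1, of the signal peptidase, 193.9 ± 16.2 and 165.6 ± 33.5 TPM (SD, n = 3 each).

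The targets of ATF4 and CHOP (27 tested, 0 passed, scaled median 0.06) lay on both sides of 0. Atf3, a stress factor that is also an immediate early gene, had 48.4, 36.1 and 33.8 TPM in R1ko libraries, against 50.7, 14.0 and 26.9 TPM in WT libraries, a wide spread in WT (log2 fold change 0.53, limma adjusted p = 0.9999). Nupr1, a stress-induced nuclear protein, averaged 106.7 ± 13.9 TPM in R1ko and 131.6 ± 18.1 TPM in WT, and Slc7a11, the cystine transporter, 1.28 ± 0.35 and 1.72 ± 0.25 TPM. Eif4ebp1, an inhibitor of translation initiation, averaged 33.5 ± 5.71 and 26.4 ± 8.34 TPM. Ppp1r15a, the phosphatase subunit GADD34 that ends the PERK response, averaged 13.9 ± 2.68 and 13.6 ± 1.14 TPM, and Trib3, a CHOP target, was below the level for testing at 0.66 ± 0.25 and 0.56 ± 0.02 TPM.

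**Figure D4:**
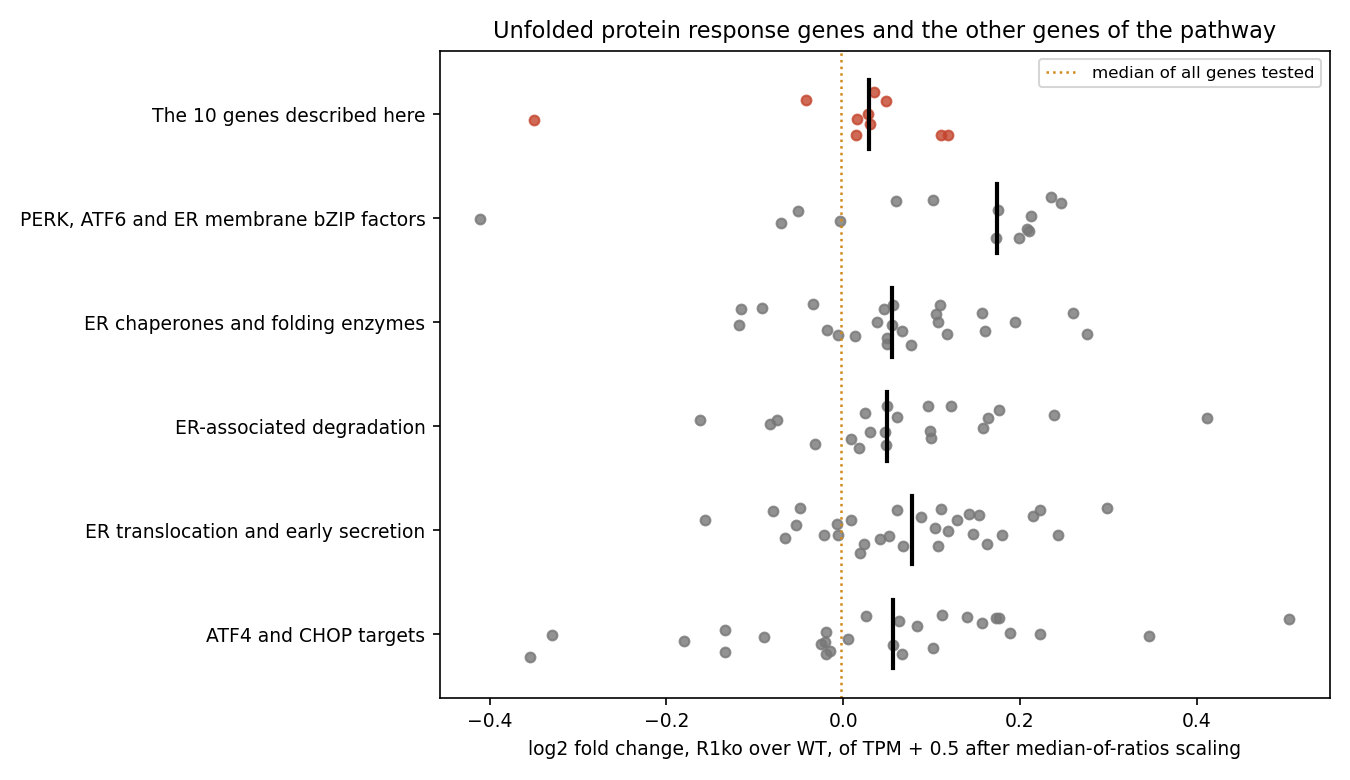
Log2 fold change, R1ko over WT, after median-of-ratios scaling, for each tested gene of the 10 described here (red) and of the 5 lists of other pathway genes (grey); black bars are medians and the dotted line is the median of all 14284 genes tested. The medians of the 5 lists lie between 0.05 and 0.17, and no gene shown passed an adjusted p of 0.05.

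The summed levels of the ER lists were set beside markers of the cells that use this pathway most. In whole tissue a change in the number of such cells and a change of RNA per cell cannot be told apart. After scaling, the summed TPM of the 22 genes of ER-associated degradation was 1026, 1079 and 1009 in R1ko libraries, against 943.8, 975.8 and 968.3 in WT libraries. The chaperone list without the goblet cell gene Agr2 summed to 2463, 2501 and 2477 in R1ko, against 2320, 2419 and 2346 in WT. The groups did not overlap in either sum. They did not overlap either in the scaled sums of the sensor and factor list or of the translocation list, and overlapped in that of the ATF4 and CHOP targets. As deposited, all 5 sums overlapped. Of the 21 degradation genes tested, 3 had scaled groups without overlap, and of the 24 chaperone genes with Agr2 included 6 did, beside 18.5% of all genes. Among the 3 were Selenok and Ube2g2, the latter at 128.4, 129.0 and 119.5 in R1ko and 104.0, 87.4 and 92.3 in WT after scaling. How far single genes carry these sums was not tested. Leaving Agr2 out was chosen after the values were seen.

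Of the 12 goblet cell markers, 2 (Agr2 and Creb3l1) are also in the pathway lists, 11 were tested and 0 passed, and 7 had scaled groups without overlap, all higher in R1ko, where 18.5% of all genes had none. Their scaled sum was 9753, 11258 and 10130 TPM in R1ko libraries, against 7929, 8862 and 8883 TPM in WT libraries, without overlap (exact permutation p = 0.1, the smallest possible). Zg16, the most abundant of them, averaged 3908 ± 200.3 TPM in R1ko and 3156 ± 510.7 TPM in WT as deposited. Muc2, the main mucin of goblet cells, had 796.9, 375.7 and 692.3 TPM in R1ko libraries, against 570.2, 472.9 and 883.6 TPM in WT libraries, with overlap (log2 fold change -0.07, limma adjusted p = 0.9999), and Fcgbp, a mucus protein, had a scaled log2 fold change of 0.02 (adjusted p = 0.964); both were named after their values were seen. Retnlb was the only marker of the list below 1 TPM on average. For Ern2, itself a gene of mucous epithelium, the scaled values overlapped, at 28.3, 23.995 and 27.5 in R1ko and 24.2, 25.7 and 28.2 in WT. The 10 plasma cell markers summed to 313.6, 291.3 and 269.4 scaled TPM in R1ko and to 263.9, 246.3 and 288.1 in WT, with overlap. Sdc1, which epithelium also expresses, gave the most to this sum, and the defining plasma cell genes Tnfrsf17, Irf4 and Derl3 (the last also in the degradation list) averaged below 1 TPM. Txndc5, another of the plasma cell markers, is also in the chaperone list. Of the 7 plasma cell markers tested, 5 had a negative log2 fold change on both scales (scaled median -0.15). Whether cell numbers have a part in any of these sums was not tested.

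Markers of muscle, squamous epithelium and fat were also read, and 0 genes of any marker list passed. The 7 skeletal muscle markers summed to 816.2, 2094 and 1119 TPM in R1ko libraries, against 2156, 138.9 and 466.2 TPM in WT libraries. The 8 squamous markers summed to between 797.9 and 1103 TPM in R1ko and between 269.5 and 1139 TPM in WT. Sums of the 6 adipocyte markers did not overlap, at 118.8 to 160.8 TPM in R1ko and 44.1 to 111.9 TPM in WT, nor did those of the 9 absorptive colonocyte markers, at 4345 to 4529 TPM in R1ko and 3428 to 4233 TPM in WT as deposited. After scaling the adipocyte sums still did not overlap, at 111.8 to 159.7 in R1ko and 56.2 to 99.0 in WT (exact permutation p = 0.1). The scaled colonocyte sums overlapped, at 4075 to 4849 in R1ko and 3628 to 4362 in WT (exact permutation p = 0.3). Log2 fold changes were positive on both scales for all 7 skeletal muscle, 8 squamous, 6 adipocyte and 9 colonocyte markers. In limma, 7 skeletal muscle markers as deposited and 1 after scaling had an unadjusted p below 0.05, where 3.7% and 11.4% of all genes did. The counts were 5 and 5 for adipocyte, 4 and 2 for squamous and 1 and 3 for colonocyte markers. The skeletal muscle sums overlapped on both scales (exact permutation p = 0.6 as deposited and 0.5 after scaling). On each scale 1 of the 7 skeletal muscle markers had groups without overlap, where 4.98% and 18.5% of all genes did. The 7 smooth muscle markers had scaled sums of 6366, 6681 and 6884 in R1ko libraries, against 7462, 7490 and 6901 in WT libraries, lower in R1ko without overlap (exact permutation p = 0.1), with 7 of 7 scaled log2 fold changes negative. As deposited the smooth muscle sums overlapped. The skeletal muscle gene Tnnt3 had 210.8, 596.3 and 276.4 TPM in R1ko libraries, against 604.8, 34.6 and 115.9 TPM in WT libraries. The squamous keratin Krt10 averaged 296.4 ± 84.0 TPM in R1ko and 203.9 ± 122.0 TPM in WT (SD, n = 3 each), and the adipocyte gene Fabp4 114.2 ± 17.9 and 63.0 ± 27.2 TPM, without overlap for Fabp4. Car1 of absorptive colonocytes averaged 1194 ± 172.0 and 1030 ± 147.8 TPM, Tagln of smooth muscle 2300 ± 133.2 and 2467 ± 430.5 TPM, and the immediate early gene Fos 99.2 ± 35.5 and 115.6 ± 57.9 TPM. The part of this variation in the values of Ddit3 or of the ER genes was not tested.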

How the data were processed

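The deposited values are a signal per transcript, in TPM, in 1 table of all 6 libraries. The submitters' processing notes name kallisto 0.43.1, sleuth and build mm10; the sources used here do not name the transcript annotation. Per the labels' protocols, libraries were made from polyadenylated RNA of whole colon, 3 R1ko and 3 WT mice; the design text gives an average of 30 M paired reads of 50 bases. Each of 131206 transcripts was taken once (1433 repeated lines held the same values), 43008 without a value and 1380 without a gene were left out, and TPM were summed per gene. Values were tested as log2(TPM + 0.5), a scale that understates changes of low genes, with limma 3.58.1 in R 4.3.3 (lmFit, eBayes with trend) for all genes averaging 1 TPM or more, with Benjamini-Hochberg adjustment over all genes at 0.05. The fit was tested on simulated data. Single values had two-sided exact permutation tests. GENCODE M21 gave positions and transcript types. The 10 genes, the lists and the naming rule (all 10 genes, up to 4 genes of each pathway list by smallest p, 7 set pathway genes, the most abundant marker of each marker list) were chosen with earlier results of these data known. A gene that this rule names is not reported here.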

Additional observations from a re-analysis of the deposited data

How the results depend on the processing

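Under the 13 alternative settings, 0 of the 10 genes passed in any, and the lowest adjusted p over all of them was 0.392, for Ddit3 after rescaling over transcripts with a gene (log2 fold change -0.45). The unadjusted p of Ddit3 in limma was 0.0296 after that rescaling and 0.0461 without WT replicate 2. Ddit3 stayed negative in all 13, from -0.54 to -0.21. That rescaling moved the median of all genes from 0.03 to -0.10, and with it turned the sign of Xbp1 (-0.050), Herpud1 (-0.083), Ern2 (-0.069), Creld2 (-0.062), Hyou1 (-0.082) and Atf6 (-0.065). With each library left out in turn, log2 fold changes ran from -0.11 to 0.20 for Xbp1, -0.045 to 0.29 for Atf4, -0.0016 to 0.11 for Herpud1, -0.016 to 0.23 for Sdf2l1, -0.11 to 0.20 for Ern2, -0.083 to 0.14 for Creld2, -0.14 to 0.19 for Hyou1, -0.070 to 0.14 for Atf6 and -0.16 to 0.12 for Ern1. The median of the 10 ran from -0.10, without WT replicate 2, to 0.15.

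The counts over all genes moved more, and the cause was not tested. Higher and lower genes numbered 1 and 1 without any filter for low values, 75 and 67 where a mean of 5 TPM was required, 5 and 1 after median-of-ratios scaling, and 3 and 1 after rescaling over transcripts with a gene; 16 were lower with a pseudocount of 0.1. With a library left out, from 4 to 199 were higher and from 15 to 140 lower, the fewest without WT replicate 2. Transcripts higher and lower numbered 1 and 0 with no filter, 17 were higher where 5 TPM was required and 1 was lower with a pseudocount of 0.1; leaving out a library gave from 1 to 21 higher and from 0 to 36 lower. With the replicate number as a block, 58 genes were lower, and 1 transcript was higher and 0 lower. Whether the numbers pair the samples was not settled by a check of the libraries' deviations. Those of same-numbered libraries correlated at 0.05, 0.13 and 0.18 across genes. For R1ko replicates 2 and 3 the same-numbered WT library was the best match, but R1ko replicate 1 correlated best with WT replicate 3 (0.098). Only an average depth is stated, so a limit in each library for low genes such as Trib3 cannot be given.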
